A study of Mus musculus with 8 samples.

Results

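The kinase gene *Stk39* and 6 genes of the WNK chloride transport pathway, *Oxsr1*, *Wnk1*, *Wnk2*, *Wnk4*, *Slc12a2* and *Slc12a7*, were examined for the histone mark H3K27Ac in mouse hearts with and without *Arid1a* in cardiomyocytes. A peak was given to the gene whose curated RefSeq transcription start lay nearest to the peak's centre on mm10. This rule placed 29 of the 45987 H3K27Ac peaks at the 7 genes, of 15791 genes with any peak. The genes were proposed after the group means of these peaks had been seen, and they were chosen by those same differences between genotypes. The values below are therefore a description, with no test.

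The comparison asks how H3K27Ac in the neonatal heart differs when cardiomyocytes lack *Arid1a*. Chromatin came from ventricles at postnatal day 7. The 2 controls were homozygous for a floxed *Arid1a* allele without Cre (*Arid1a* f/f), and the 2 mutants carried the same floxed alleles with a Cre transgene under the αMHC promoter (*αMHC-Cre;Arid1a* f/f, hereafter *Arid1a cKO*). αMHC-Cre acts in cardiomyocytes, so fibroblasts, vessel cells and leukocytes of the mutant ventricles keep *Arid1a*. Each heart gave a library precipitated with an antibody against H3K27Ac and an input library, 8 libraries in all. The authors' deposited table holds the mean of each group for every peak, as the log2 of normalized reads, and 0 columns of single libraries. Every value below is therefore the authors' mean over 2 libraries, without an error between hearts, and the depth of the libraries is unknown. A difference is the log2 mean of *Arid1a cKO* minus that of control, a peak is called lower or higher from a 2-fold difference on, and a mean at or under 3 normalized reads is treated as a floor.

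WNK kinases sense chloride and osmotic stress in the cell and activate a pair of related kinases, SPAK (the product of *Stk39*) and OSR1 (the product of *Oxsr1*). SPAK and OSR1 phosphorylate carriers of the SLC12 family. Phosphorylation switches on the sodium-coupled importers, such as NKCC1 (*Slc12a2*), and switches off the potassium-coupled exporters, such as KCC4 (*Slc12a7*), so the pathway raises chloride in the cell and restores cell volume after shrinkage. H3K27Ac marks active promoters and enhancers, and ARID1A belongs to a chromatin remodeller, the SWI/SNF complex.

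The 29 peaks at the pathway genes were on balance lower in *Arid1a cKO* hearts, and most of those past 2-fold were at *Stk39*. At least 2-fold lower were 11 of the 29, against 10.6% of all peaks, and 1 was at least 2-fold higher, against 4.57% of all peaks. The other 17 differed by less than 2-fold. The mutant mean was below the control mean at 26 peaks and above it at 3, while 48.3% of all peaks had a difference below 0. The median difference was −0.71 over the 29 peaks and 0.01 over all 45987. *Stk39* accounted for 9 of the 11 lower peaks. Without its 14 peaks, the other 6 genes had 15 peaks with a median of −0.23, of which 2 were lower and 1 higher, and these are a peak each at *Wnk2*, *Slc12a2* and *Oxsr1*.

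Sequences at both ends of this range are shown first, together with the regions upstream of 3 of the genes, from the GRCm38.p6 (mm10) assembly and its RefSeq starts. Of the 7 genes, 6 were in the promoter table used here. The 250 bases upstream of *Stk39* (chr2:68471982-68472231, minus strand), *Oxsr1* (chr9:119322428-119322677, minus strand) and *Wnk2* (chr13:49148329-49148578, minus strand) are given in the direction of transcription, with CpG dinucleotides in capitals. They are shown because the start of *Stk39* had the largest difference among the starts under a peak, that of *Oxsr1*, the gene of the related kinase, had close to none, and that of *Wnk2* had no peak.
Stk39 upstream: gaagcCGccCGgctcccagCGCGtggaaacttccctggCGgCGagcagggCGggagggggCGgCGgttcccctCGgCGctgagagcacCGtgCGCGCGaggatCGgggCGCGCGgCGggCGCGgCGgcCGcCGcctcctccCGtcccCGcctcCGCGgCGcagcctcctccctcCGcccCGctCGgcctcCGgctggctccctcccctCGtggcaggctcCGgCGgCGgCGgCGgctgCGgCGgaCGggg
Oxsr1 upstream: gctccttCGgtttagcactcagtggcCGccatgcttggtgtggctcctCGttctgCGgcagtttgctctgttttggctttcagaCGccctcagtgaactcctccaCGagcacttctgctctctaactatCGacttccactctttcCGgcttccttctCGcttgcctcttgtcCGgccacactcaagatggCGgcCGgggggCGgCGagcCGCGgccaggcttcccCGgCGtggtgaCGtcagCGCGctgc
Wnk2 upstream: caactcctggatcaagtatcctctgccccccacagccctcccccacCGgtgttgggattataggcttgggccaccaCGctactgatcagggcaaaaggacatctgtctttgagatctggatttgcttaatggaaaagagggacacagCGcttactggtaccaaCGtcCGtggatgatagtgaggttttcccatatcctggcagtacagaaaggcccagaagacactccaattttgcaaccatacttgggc
The *Stk39* stretch holds 43 CpG and is 82.4% G and C. The *Oxsr1* stretch holds 21 CpG, and the *Wnk2* stretch 5, next to a median of 6 over 32851 promoters of the table. The upstream stretches of *Wnk1*, *Wnk4* and the 2 starts of *Slc12a7*, all of which lie under a peak, hold 15 to 26 CpG.

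The next 4 sequences are the central 300 bases of the peaks with the largest differences, on the plus strand. The centre is the middle of a broad called region and not a summit. The first pair is the *Wnk2* peak, the lowest of the 29 (chr13:49128747-49129046), and the *Oxsr1* peak, the highest (chr9:119328951-119329250), with the longest run that they share in capitals.
Wnk2 peak: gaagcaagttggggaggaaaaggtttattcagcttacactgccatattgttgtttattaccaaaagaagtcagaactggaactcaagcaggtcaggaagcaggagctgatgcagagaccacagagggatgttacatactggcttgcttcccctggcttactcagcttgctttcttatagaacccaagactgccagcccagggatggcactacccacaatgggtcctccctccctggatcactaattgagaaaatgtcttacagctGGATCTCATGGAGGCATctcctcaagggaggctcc
Oxsr1 peak: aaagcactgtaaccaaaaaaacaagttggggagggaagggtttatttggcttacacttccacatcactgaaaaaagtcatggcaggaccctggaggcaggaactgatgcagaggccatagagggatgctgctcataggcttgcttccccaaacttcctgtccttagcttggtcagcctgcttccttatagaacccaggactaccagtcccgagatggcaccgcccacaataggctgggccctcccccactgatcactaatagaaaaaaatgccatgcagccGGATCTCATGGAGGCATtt
The shared run is 17 bases long, and a local alignment of the 2 windows on the same strand had 217 identical columns of 301 (72.1%). Both windows are mostly repeat sequence: the reference marks 93.7% of the *Wnk2* window and 80.7% of the *Oxsr1* window as repetitive or low in complexity, next to a median of 8.0% over the windows of all peaks. Over the whole peaks the marked share was 23.6% at *Wnk2* and 51.4% at *Oxsr1*, and 14.2% at the median peak. Of all peaks whose window was at least 50% marked, 12.3% were lower and 4.34% higher, next to 10.5% and 4.58% of the others. Of the 70 peaks whose window was fully marked, 18.6% were lower and 2.86% higher. Of the 29 windows at the pathway genes, 4 (13.8%) were at least 50% marked, next to 4.46% of the windows of all peaks. Besides *Wnk2* and *Oxsr1*, these were a *Wnk1* peak (70.0% marked, difference 0.48) and the *Wnk4* peak (51.7%, 0.21). How reads that map to several places were treated is not given in the sources used here. The part of the repeats in these 4 differences was not tested.

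The second pair is the lowest *Stk39* peak (chr2:68391842-68392141) and the next lowest (chr2:68438413-68438712), with motif matches in capitals.
Stk39 peak 80.0 kb downstream: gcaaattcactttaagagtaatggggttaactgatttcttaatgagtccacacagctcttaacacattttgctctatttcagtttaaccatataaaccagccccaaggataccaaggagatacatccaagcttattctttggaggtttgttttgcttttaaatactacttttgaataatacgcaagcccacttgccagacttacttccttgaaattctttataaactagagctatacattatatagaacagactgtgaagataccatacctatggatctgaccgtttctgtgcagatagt
Stk39 peak 33.4 kb downstream: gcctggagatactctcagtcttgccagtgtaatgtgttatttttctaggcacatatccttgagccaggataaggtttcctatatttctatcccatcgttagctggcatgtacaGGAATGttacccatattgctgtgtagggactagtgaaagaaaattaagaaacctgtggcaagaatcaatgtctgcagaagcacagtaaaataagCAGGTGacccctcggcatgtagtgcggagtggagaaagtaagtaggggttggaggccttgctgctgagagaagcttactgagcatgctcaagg
The motifs searched, on both strands, were the TEAD motif CATTCC, the estrogen-related receptor motif AAGGTCA, the MEF2 motif by its name, the E-box with the letters CACGTG, and a further E-box with the letters CACCTG. No motif contains another, so a window can hold several. The first window had no match. The second had a TEAD match on the minus strand at bases 114 to 119, printed as GGAATG, and a match to the further E-box on the minus strand at bases 208 to 213, printed as CAGGTG. Over the 14 *Stk39* windows, 2 held the TEAD motif (14.3%, against 16.7% of the windows of all peaks), and the same 2 held the further E-box (14.3%, against 17.7%). No *Stk39* window held the receptor motif, the first E-box or the MEF2 motif, which 7.05%, 4.88% and 1.63% of all windows held. In the windows of the other 6 genes, the receptor motif matched in 1 of *Slc12a7*, the TEAD motif in another of *Slc12a7* and the further E-box in 1 of *Wnk1*. The 300-base promoters reach from 250 bases upstream to 50 downstream of the start. Among them, *Oxsr1* held the further E-box and both *Slc12a7* starts held both E-boxes. The 2 *Slc12a7* promoters overlap for most of their length, so their matches may be the same sites. Of all promoters, 20.2% hold the further E-box and 7.15% the first. The *Stk39* windows were 36.0% to 60.3% G and C with a median of 44.3%, next to 49.7% over all windows, and a median of 8.17% of their bases was marked as repeats.

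*Stk39* lies on the minus strand at chr2:68210447-68471981 and spans 262 kb, with 1 curated transcript. All of its 14 peaks had a lower mean in *Arid1a cKO* hearts than in controls, and all 14 had their centre in an intron. They spread over 141 kb from the start into the gene and covered 54.3 kb of it. Summed over the 14 peaks, normalized reads were 3395 in controls and 1807 in mutants, or 53.2% of the control sum. The median difference of the peaks was −1.41, and single peaks kept from 11.7% to 82.9% of the control mean.

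The peak over the *Stk39* start is 9.0 kb wide and had 929 normalized reads in controls and 508 in mutants, a difference of −0.87. It does not pass the 2-fold limit, yet it has the lowest difference among the 6 peaks that lie over the start of one of the 7 genes. The tallest *Stk39* peak lies 93.9 kb into the gene, is 9.3 kb wide, and had 996 reads in controls and 553 in mutants, a difference of −0.85. The broad peak 39.5 kb into the gene had 519 reads in controls and 220 in mutants, and its difference of −1.24 makes it the only peak of 5 kb or more at *Stk39* past the 2-fold limit. The other broad peaks differed least. At 57.2 kb into the gene, 385 reads in controls stood against 272 in mutants (−0.50), and at 64.5 kb, 156 stood against 130 (−0.27).

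The 9 narrower peaks of *Stk39* had lower levels and, with 1 exception, were more than 2-fold lower. The largest difference, −3.09, was at 80.0 kb into the gene, where 56.5 reads in controls stood against 6.63 in mutants, a mean 8.51-fold lower. At 33.4 kb, 18 reads in controls stood against 2.36 in mutants, which is under the floor, so this peak was at least 6.0-fold lower. At 99.6 kb, 37.8 reads stood against 7.57 (−2.32).
Of the remaining narrow peaks, the 50.9 kb peak had 56.9 reads in controls and 16.6 in mutants (−1.78). The peak at 125 kb had 27.1 and 8.06 (−1.75). The peak at 14.6 kb, the tallest of the narrow ones, had 139 and 49.9 (−1.48). These 3 peaks thus kept 29.1% to 35.8% of the control mean, although their control levels spanned 27.1 to 139 reads.
The peak at 29.1 kb had 35.8 reads in controls and 13.3 in mutants (−1.43), and the farthest peak, at 140 kb, had 14.8 and 5.70 (−1.38). The exception is the peak at 105 kb, with 22.5 reads in controls and 13.7 in mutants (−0.71). No *Stk39* peak had 8 reads or fewer in controls, while 4 did in mutants. Regions seen in 1 sample alone were dropped, so peaks low in both groups would tend to be absent. The part of that filter in this contrast was not tested, and the share of all peaks at or under 8 reads is not given here.

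**Figure D1:**
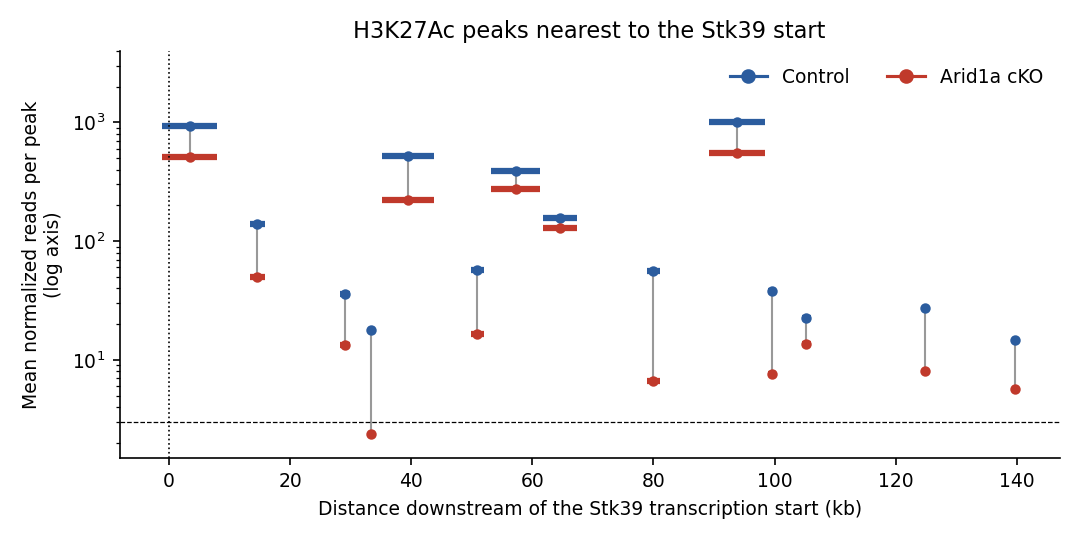
Mean normalized reads per peak (log axis) against the distance of the peak downstream of the *Stk39* start in kb. Each peak has a point and a bar as long as the peak is wide, in blue for control and red for *Arid1a cKO*, joined by a grey line; the dotted line is the start and the dashed line the floor of 3 reads. All 14 mutant points lie below their control points, by the most at 80.0 kb and 33.4 kb and by the least at 64.5 kb.

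Broad *Stk39* peaks kept a larger share of the control reads than narrow ones. The 5 peaks of 5 kb or more summed to 2986 reads in controls and 1683 in mutants, or 56.4%, with a median difference of −0.85 and 1 lower peak. The 9 narrower peaks summed to 408 and 124 reads, or 30.3%, with a median of −1.75 and 8 lower peaks. Most of the reads missing in mutants were nevertheless in the broad peaks, which held 88.0% of the control reads and 82.1% of the difference in summed reads. Over the 14 peaks, the Spearman correlation of the difference with width was 0.52, that with control level 0.45 and that with distance from the start 0.04. These 14 peaks are neighbours on 1 gene in the same libraries, width and level go together in them, and the correlations are a description. Across all peaks the correlation of the difference with control level had the other sign, −0.25.

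The same classes of peaks over the whole genome give the scale of these counts. Of the 14789 peaks in introns over 10 kb from a start, 15.3% were lower, against 9 of 13 such peaks at *Stk39*. A difference below 0 was found at 52.6% of these 14789 peaks, against all 13 at *Stk39*. Of all peaks with a control mean of 16 to 64 reads, 15.4% were lower, against 6 of 7 at *Stk39*. Among all peaks of 5 kb or more 3.97% were lower, where *Stk39* had 1 of 5, and among those under 5 kb 11.2% were, where it had 8 of 9. Because *Stk39* was chosen by these differences, these counts place the gene and test nothing.

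**Figure D2:**
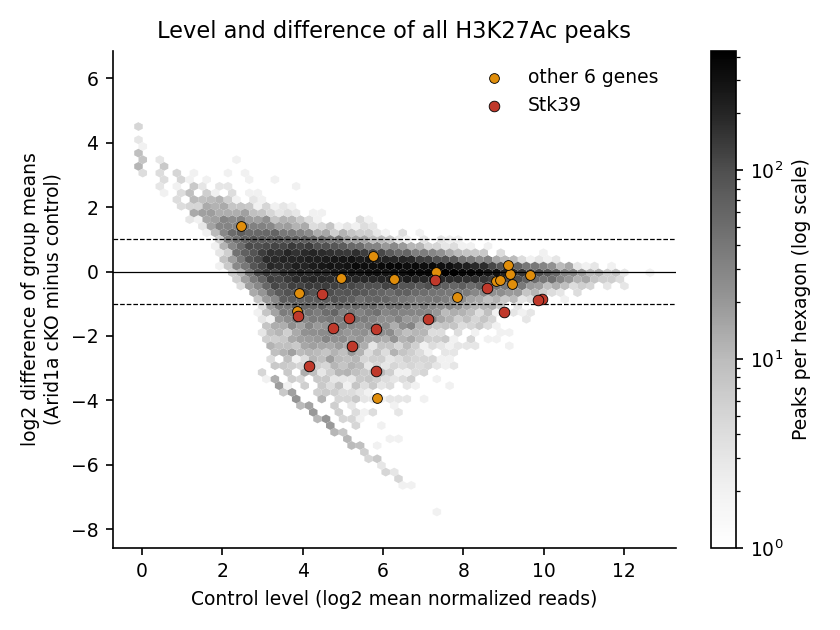
Difference of the group means (log2, *Arid1a cKO* minus control) against the control level (log2 mean normalized reads) of all 45987 peaks, as grey hexagons shaded by the number of peaks on a log scale. Red points are the 14 peaks of *Stk39* and orange points the 15 peaks of the other 6 genes; dashed lines mark 2-fold. The *Stk39* points lie below 0 at every level, and the 3 with the highest levels lie at −0.85, −0.87 and −1.24, below most hexagons of that level.

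Among the 1200 genes with at least 8 peaks, the median of the gene medians was 0.02, and 13 genes, *Stk39* included, had a median at or below that of *Stk39*. Every peak was below 0 at 29 of the 1200. Of the 330 genes with at least 14 peaks, every peak was below 0 at 3, *Hdac4* with 17 peaks, *Ror1* with 16 and *Stk39*. By the ratio of summed reads, 30 of the 1200 genes, *Stk39* included, were at or below the value of *Stk39*. The 5 genes with the closest medians were *Mgat5* (−1.40), *Sox6* (−1.40), *Corin* (−1.42), *Dbx1* (−1.42) and *A330032B11Rik* (−1.39), a likeness in the median over 8 to 14 peaks of each gene. *Corin*, the cardiac protease that activates natriuretic peptides, had all of its 10 peaks below 0 and *A330032B11Rik* all of its 8, while *Mgat5* had 1 peak that was higher.

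The rule on the nearest start leaves out the far end of the *Stk39* gene. 5 further peaks lie inside *Stk39*, 201 to 260 kb into the gene, but nearer to the start of *B3galt1*, a glycosyltransferase gene whose start is 367 kb away. The values of all 5 were lower in mutants, 4 of them at least 2-fold. The peak at the gene's last exon, 260 kb in, had 38.6 reads in controls and 1.89 in mutants, at least 12.9-fold lower given the floor. The next, at 257 kb, had 65.8 and 6.15 reads (−3.42), and the one at 253 kb had 14.6 and 0.95, at least 4.87-fold lower. At 249 kb, 58.5 reads stood against 24.6 (−1.25). The peak at 201 kb, 20.0 against 18 reads (−0.15), is the nearest to those the rule took, the first of which is at 140 kb with −1.38. With these 5, 19 peaks lay in the gene, all 19 below 0 and 13 of them lower, and the summed reads were 51.7% of control. On the other side of the start, the next gene by position, *Gm36002*, had 0 peaks, and the next peaks, 311 and 315 kb upstream and nearest to *Cers6*, had differences of 0.48 and −0.71. The 8 peaks of *B3galt1*, the 5 above included, ranged from −4.35 to 0.50.

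*Oxsr1*, whose product OSR1 shares its substrates with SPAK, had nearly equal means at its start in both genotypes. *Oxsr1* (chr9:119238432-119322427, minus strand) had 2 peaks. The one over its start had 568 reads in controls and 545 in mutants, a difference of −0.06, and the mutant mean was 95.9% of control. The other, 829 bp wide and 6.7 kb upstream of the start between genes, had 5.54 reads in controls and 14.7 in mutants. Its difference of 1.41 makes it the one higher peak at the 7 genes, and its control level is at the low end, with 2.28% of all peaks at or below it. It is the peak with the shared repeat sequence printed above.

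Of the WNK kinases upstream of SPAK and OSR1, *Wnk1*, a broadly expressed family member, had means within 2-fold throughout. *Wnk1* (chr6:119923969-120038655, minus strand) had 3 peaks. The peak over its start had 809 reads in controls and 744 in mutants (−0.12). Upstream of the gene, a peak at 14.1 kb had 77.2 and 65.8 reads (−0.23), and a peak at 17 kb had 53.4 and 74.5 (0.48). The first 2 are lower in mutants and the last is higher, each by less than 2-fold.

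*Wnk2* had the largest difference of the 29 peaks. *Wnk2* (chr13:49036302-49148328, minus strand) had a single peak, 2.6 kb wide and in an intron 19.4 kb into the gene, and none over its start. That peak had 57.3 reads in controls and 3.78 in mutants, a difference of −3.92, or 6.61% of the control mean. A difference as low or lower was found at 0.70% of all peaks. Its central window is the repeat-rich one shown above. The mutant mean of this peak is little above the floor of 3 reads, and with a pseudocount of 5 reads the difference was −2.83.

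*Wnk4* (chr11:101260567-101277409, plus strand) also had a single peak, 9.7 kb wide, which had 549 reads in controls and 635 in mutants (0.21). The peak covers the start of the neighbouring gene *Vps25* as well, and its centre lies inside *Vps25*, so it cannot be assigned to *Wnk4* alone.

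The chloride carriers differed by less than 2-fold at nearly all of their peaks. *Slc12a2* (chr18:57878678-57946821, plus strand), the gene of the importer NKCC1, had 3 peaks. The peak over its start had 160 reads in controls and 158 in mutants (−0.02). A peak 112 kb downstream had 30.9 and 27.1 reads (−0.19). The third, 829 bp wide and 33.3 kb upstream, had 14.5 and 6.19 reads, and its difference of −1.23 is the 1 lower peak among the carriers.

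*Slc12a7* (chr13:73763660-73816754, plus strand) is the gene of the exporter KCC4. By the rule on the nearest start it had 5 peaks, all of them below 0 and none at 2-fold. The peak 29.0 kb upstream had 231 reads in controls and 134 in mutants (−0.78). The peak over the start, 16.3 kb wide, had 484 and 405 reads (−0.26). The tallest peak, 38.4 kb into the gene, had 592 and 449 (−0.40).
The other 2, both upstream, had 449 against 365 reads (−0.30) and 15.1 against 9.51 (−0.67). Summed over the 5 peaks, 1771 reads in controls stood against 1362 in mutants, or 76.9%, between the 53.2% of *Stk39* and the 94.2% of *Wnk1*, the 93.0% of *Slc12a2* and the 97.6% of *Oxsr1*. The genes with a single peak were at the ends of this order, *Wnk2* with 6.61% and *Wnk4* with 116%. Which of these neighbours in the order differ beyond the spread between hearts cannot be said from group means. The rule also left out peaks in the far part of *Slc12a7* and just past its end, which lie nearer to the start of *Nkd2*. Of these, the intron peaks had differences of 0.47 and −0.88. The peak past the end had 16.6 reads in controls and 6.63 in mutants (−1.32), so it was lower.

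**Figure D3:**
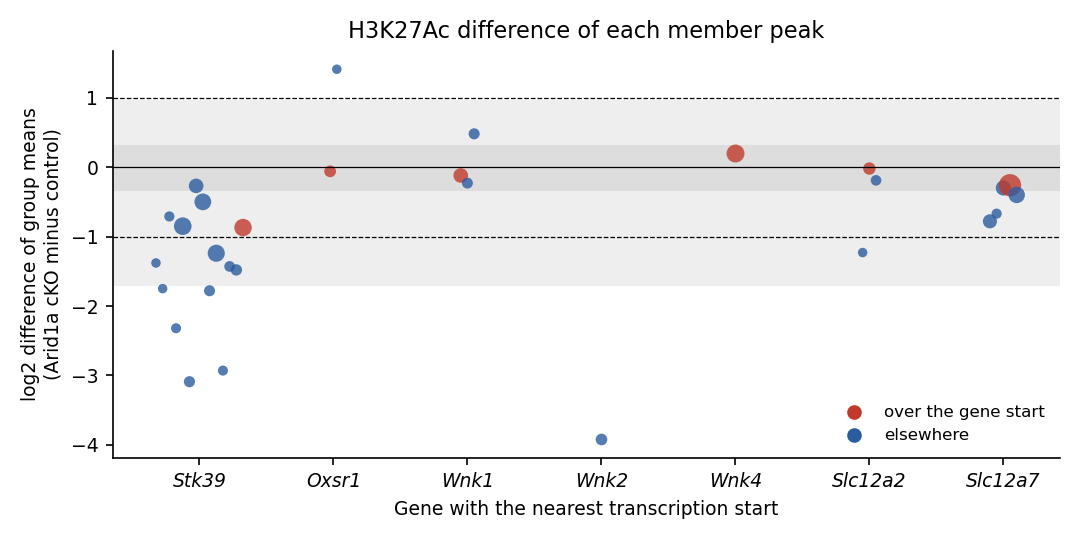
Difference of the group means (log2, *Arid1a cKO* minus control) of each of the 29 peaks, by the gene with the nearest start and, within a gene, in order of position. Point size grows with peak width, red points cover the gene's start and blue points do not; the dark and light bands hold the middle 50% and 90% of all peaks, and dashed lines mark 2-fold. All 14 *Stk39* points are below 0, the *Wnk2* point is lowest at −3.92, and the red points lie between −0.87 and 0.21.

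The peaks past 2-fold all lay away from the starts. The 6 peaks over the start of their own gene, at every gene but *Wnk2*, had a median difference of −0.09 and a range of −0.87 to 0.21, and 0 were lower. The other 23 peaks had a median of −0.85, and 11 were lower. Over all peaks, 1.70% of the 12022 that cover a curated start were lower and 13.8% of the 33965 that cover none. Per kb of peak, the control level of the start peaks was 215 reads at *Oxsr1*, 145 at *Wnk1*, 103 at *Stk39*, 56.6 at *Wnk4*, 49.0 at *Slc12a2* and 29.7 at *Slc12a7*. In mutants it was 206 at *Oxsr1*, 134 at *Wnk1*, 65.5 at *Wnk4*, 56.2 at *Stk39*, 48.4 at *Slc12a2* and 24.8 at *Slc12a7*, so that *Stk39* was above *Wnk4* in controls and below it in mutants.

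Other genes of the pathway were, pooled as a set, close to the background, while the lists differed. They were taken as 3 lists of 28 genes in all, of which 21 had 127 peaks. Of these peaks 12 (9.45%) were lower and 8 (6.30%) higher, with a median of −0.05, near the shares and the median over all peaks. Among the kinase regulators, 6 of 8 genes had 42 peaks, 6 lower (14.3%) and 5 higher (11.9%), with a median of −0.03. Both shares were above those of all peaks. *Cab39*, whose product MO25 is a scaffold that activates SPAK and OSR1, had a peak 28.3 kb into the gene with 19.8 reads in controls and 0.95 in mutants, at least 6.61-fold lower. The *Cab39* start differed by −0.14, and another intron peak was higher (1.57). *Nedd4l*, the gene of a ubiquitin ligase that acts on ion channels and carriers, had 5 lower and 2 higher among 21 peaks, from −3.10 to 1.41. *Klhl2*, whose product brings WNK kinases to degradation, had 1 higher peak, from 3.39 to 12.4 reads (1.87). *Sgk1*, the serum- and glucocorticoid-regulated kinase gene, had 1 as well (1.27). *Wnk3* and *Cab39l* had 0 peaks.

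The other SLC12 carriers had 15 peaks at 4 of 7 genes, with 0 lower, 0 higher and a median of −0.10. The lowest was a peak of *Slc12a8* at −0.90, and *Slc12a1*, *Slc12a3* and *Slc12a5*, which act mainly in kidney and neurons, had 0 peaks. Among other chloride and volume genes, 11 of 13 had 70 peaks, 6 lower (8.57%) and 3 higher (4.29%), with a median of −0.04. An intron peak of *Slc4a2*, a chloride and bicarbonate exchanger gene, had 35.8 reads in controls and 7.11 in mutants (−2.33). An intron peak of *Slc26a6*, another anion exchanger gene, had 84.4 and 29.0 (−1.54). *Slc4a3*, the anion exchanger gene of heart and brain, had 3 lower and 2 higher peaks, from −1.55 to 1.15, with the 3 lower ones 389 to 449 kb from its start. Of the chloride channel gene *Clcn3*, 1 of 5 peaks was lower (−1.18), and of the volume-regulated channel gene *Lrrc8b*, 1 of 7 was higher (1.08).

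**Figure D4:**
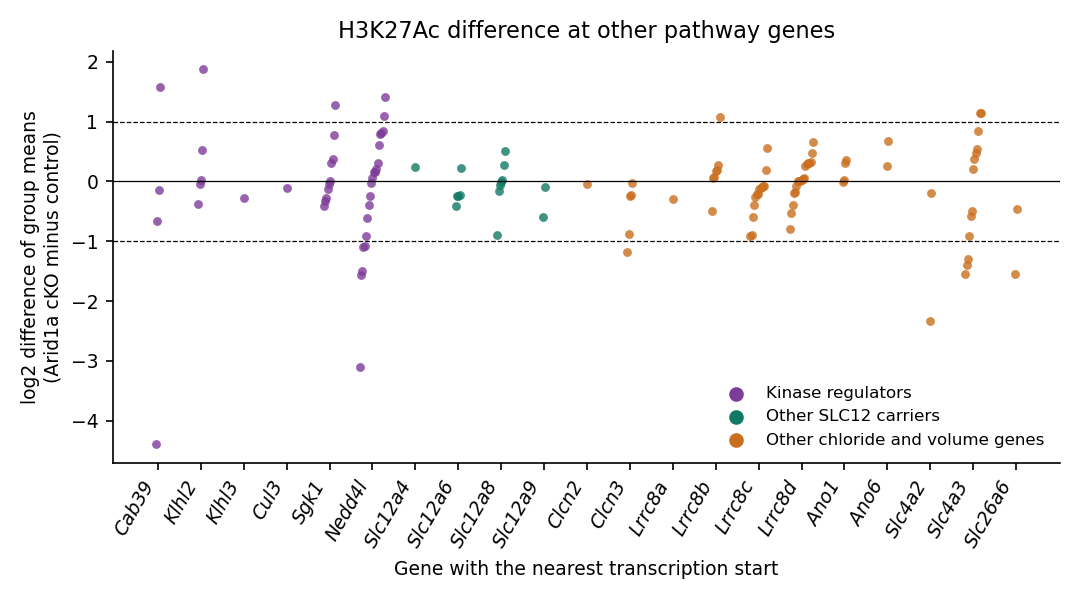
Difference of the group means (log2, *Arid1a cKO* minus control) of the 127 peaks at 21 other genes of the pathway, by the gene with the nearest start and in order of size within a gene. Colours give the 3 lists and dashed lines mark 2-fold; 12 points lie at or below the lower line and 8 at or above the upper one, on both sides of 0 in *Nedd4l*, *Cab39* and *Slc4a3*.

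The samples are whole ventricles, in which fewer cells of a type and less mark per cell cannot be told apart. The 36 peaks of 8 cardiomyocyte markers, of which *Actc1* had 0 peaks, had a median difference of −0.09, and their summed reads differed by −0.08. Of them 1 was lower (2.78%) and 3 were higher (8.33%), against 10.6% and 4.57% of all peaks. The 37 peaks of 6 fibroblast markers had a median of 0.38, and their sum differed by 0.43. Of these, 0 were lower and 5 higher (13.5%), with 4 of the 5 at *Tcf21* and 1 at *Postn*. Medians were 0.10 over 46 endothelial, 0.01 over 15 smooth muscle and pericyte and 0.23 over 8 leukocyte peaks, where *Adgre1* had 0 peaks. The part of this higher fibroblast mark in the *Stk39* values was not tested. The start of *Arid1a* had 1607 reads in controls and 1663 in mutants (0.05), and the mark there does not measure the deletion.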

How the data were processed

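H3K27Ac ChIP-Seq was performed on ventricles of 2 control and 2 *Arid1a cKO* mice at postnatal day 7, each with an input library. As the study's methods state, reads were aligned by the authors to the mm10 genome (BWA 0.7.17-r1188). HOMER called regions in its histone style, with all inputs merged as background, and regions seen in 1 sample alone were dropped. The authors then compared genotypes in DiffBind 2.12.0 (DESeq2 1.24.0). The submitters' processing notes list HOMER 4.11. The study's methods give that version for motif discovery and an earlier one for calling the regions. The deposited table gives log2 mean normalized reads for all samples and for each group, which the authors computed; it holds 0 columns of single samples. Scaling between libraries and any subtraction of input are not given in the sources used here. The table's fold, p-value and FDR columns hold the authors' own comparison and were not used.

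The difference of the group means was taken per peak, rounded to 2 decimals. Group means alone allow no test here, and no p-value is given. Members and lists were chosen with earlier results of these data known. Nearest starts came from 45756 curated transcripts of GRCm38.p6; the last peaks of 21 of 21 chromosomes lay inside it, 7 peaks on other sequences got no gene and 49 were tied between genes. The named genes are the 7 members with every peak, the genes with closest medians to *Stk39*, its neighbours, and from each of the 3 lists the genes with a peak at least 2-fold different, at most 3 at each end; *Sgk1*, *Clcn3* and *Slc12a8* were named beyond this rule after their values were seen. Fewer promoters and windows are printed than the members allow, and the second *Stk39* window was added after its values were seen. Repeats are the lower-case bases of the reference. Peak assignment was tested on simulated positions, and counting on differences set in advance without noise. These tests check the code and not the calls on these group means. Alternatives covered the fold limit, centring, a pseudocount of 5 reads, a minimum mean of 16 reads, the transcripts, the point of the peak, a 100 kb limit and the gene body with 5 kb on each side. Python 3.11.15 was used with numpy 2.4.6, pandas 2.3.3 and matplotlib 3.10.9.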

Additional observations from a re-analysis of the deposited data

How the results depend on the processing

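Of 98 recomputed values under 9 other settings, 82 stayed within the tolerance set (0.1 in log2 for a median, 1.5 times for a count), 16 moved, and 0 values past 2-fold changed sign. The count of lower peaks at the 7 genes ranged from 8 to 16 and that of *Stk39* from 7 to 13, next to 11 and 9. The 8 is out of 24 peaks of at least 16 mean reads, and the 16 uses a 1.5-fold limit. The 13 at *Stk39* uses the gene body. The share of all peaks at each setting is not given here, so these counts lack a background. With a pseudocount of 5 reads, the median of the 29 peaks was −0.55, that of *Stk39* −1.19, and 0 peaks were higher. With only peaks of at least 16 mean reads, the median was −0.61 (over 24 peaks) and 0 were higher, since the *Oxsr1* peak drops out. With all RefSeq transcripts the median was −0.59 (over 32 peaks). With the gene body and 5 kb on each side it was −0.88 (over 31 peaks), and again 0 were higher, as that *Oxsr1* peak lies outside. In both settings without it the *Oxsr1* median was −0.06 in place of 0.68. The *Stk39* log2 ratio of summed reads ranged from −0.95 to −0.90. No paired analysis was possible because the deposited table holds only group means, and for the same reason no heart could be left out. Group means of 2 libraries limit every value here.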
